A study of Mus musculus with 13 samples.

Results

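Amino acid carriers of 7 solute carrier families (Slc1, Slc3, Slc6, Slc7, Slc36, Slc38 and Slc43) were examined in Sertoli cells of adult mice. Members were taken by gene symbol alone, as every named row of the count table whose symbol starts with one of these family names followed by "a" and a number. This gave 63 of 27111 named genes, after 4 opposite-strand transcripts with an "os" name had been set aside. The Slc6 family had 21 members, Slc7 had 15, Slc38 had 11, Slc1 had 7, Slc36 had 4, Slc43 had 3 and Slc3 had 2.

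The RNA came from 13 wild-type C57Bl/6J males, sacrificed at 3 to 5 months of age. As pups, 7 of them had gone through MSUS, in which pups are taken from the mother at unpredictable times and the mother is stressed meanwhile. This lasted 3 h per day from postnatal day 1 to 14, and the mother was put in water of 18 °C for 5 min or restrained in a tube for 20 min. The 6 control males had been left undisturbed with their mothers. No transgene or surface marker was used to obtain the cells, which were sorted as diploid, large and rich in MitoTracker signal, and each library started from 5 ng of RNA of the sorted cells. The comparison asks whether stress in early postnatal life leaves a trace in the RNA of these cells in adulthood. The study lists a litter cage for its mice, but litters were not given in the labels and did not enter the fits. The p-values thus measure the spread between these mice and not that between litters.

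Sertoli cells line the seminiferous tubule and close it off with the blood-testis barrier, so germ cells behind the barrier depend on them for nutrients. Amino acids cross membranes through carriers, some of which exchange one amino acid for another, some of which draw on the sodium gradient and some of which sit on lysosomes. Slc3 proteins are heavy chains that do not carry amino acids by themselves but bring light chains of the Slc7 family to the plasma membrane.

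The control libraries held between 13087108 and 18649819 counts each, and the MSUS libraries between 12701664 and 15693836. Mean log2 CPM (CPM, the counts of a gene scaled to a common library size, here after TMM normalization) over 9 Sertoli cell markers was 8.92 ± 0.077 in controls and 8.88 ± 0.086 in MSUS samples (SD, n = 6 and 7), above the mean of every other cell type list. The next highest list was that of 5 elongated spermatid markers, with 7.58 ± 0.22 in controls and 7.74 ± 0.45 in MSUS samples, followed by 7 spermatocyte markers with 4.69 ± 0.16 and 4.41 ± 0.42. Control means of the other cell type lists lay between -0.97 for lymphoid cells and 2.73 for round spermatids. The Sertoli list includes Amhr2, Clu, Ctsl, Rhox5 and Sox9, which the study named for their abundance in these same cells. Its top rank is thus partly set by the choice of genes. No marker gene was at 0 in all 13 libraries, and at an unadjusted p under 0.05 (limma) 1 spermatocyte marker was lower and 1 endothelial marker higher in MSUS samples. The part of these other cells in the level of any carrier was not tested, and in sorted material fewer cells of a type and less RNA per cell cannot be told apart.

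The sequences upstream of 3 carriers are shown because Slc3a2 and Slc38a2 lead their families in these cells, whereas Slc7a11, which has low counts here, holds a motif of the amino acid stress response. They are the 250 bases before the RefSeq transcript start (GRCm38.p6), 5′ to 3′ on the gene's own strand, at chr19:8713898-8714147, chr15:96699729-96699978 and chr3:50443614-50443863, all on the minus strand. The Slc3a2 window lies within the annotated gene (chr19:8706882-8723369), so it precedes an internal transcript start. Capitals mark the letters TGATGNAAN on either strand, the C/EBP-ATF response element that ATF4 binds when amino acids are short.
Slc3a2: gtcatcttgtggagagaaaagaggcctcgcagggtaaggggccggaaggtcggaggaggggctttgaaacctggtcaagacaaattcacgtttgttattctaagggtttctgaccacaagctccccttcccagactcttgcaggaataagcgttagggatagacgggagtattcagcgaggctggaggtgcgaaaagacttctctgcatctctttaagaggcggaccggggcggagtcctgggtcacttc
Slc38a2: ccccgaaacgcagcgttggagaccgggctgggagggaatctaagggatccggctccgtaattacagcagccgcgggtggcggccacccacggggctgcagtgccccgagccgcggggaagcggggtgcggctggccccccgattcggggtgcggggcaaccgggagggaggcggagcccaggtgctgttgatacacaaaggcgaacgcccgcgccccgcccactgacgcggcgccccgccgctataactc
Slc7a11: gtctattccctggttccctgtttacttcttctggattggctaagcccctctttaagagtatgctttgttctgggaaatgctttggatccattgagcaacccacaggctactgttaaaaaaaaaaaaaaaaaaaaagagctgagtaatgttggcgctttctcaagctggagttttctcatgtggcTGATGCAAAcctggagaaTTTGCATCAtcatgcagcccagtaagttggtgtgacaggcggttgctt
The motif occurs in Slc7a11 from -66 to -58 and, on the opposite strand, from -48 to -40 relative to the transcript start. Of the 45 members with a promoter in the RefSeq table, 3 (6.67%) hold a match, and these are Slc7a11, Slc7a7 and Slc6a21. The share among all 27025 genes with a promoter is 3.89%. A match is a match of letters, and binding was not measured here. Only the 250 bases before the start were searched, so a motif elsewhere in or near a gene would have been missed.

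Of the 63 members, 32 had enough counts to be tested. Levels of different genes were compared as log2 CPM per kb of the longest protein-coding transcript. Shares of a family's CPM per kb rest on the same length. On this scale Slc7a5 and Slc3a2 were the most abundant carriers of the 7 families, followed by Slc7a4 and Slc38a2. Slc7a5 lay above 98.3% of the 13352 tested genes with a length, Slc3a2 above 98.2% and Slc7a4 above 91.8%. In all, 3 members were above 90% of genes, 10 were above 75% and 14 were above 50%. Each of the 6 families with more than 1 tested member had a leading carrier that was above the next one in 6 of 6 controls.

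**Figure D1:**
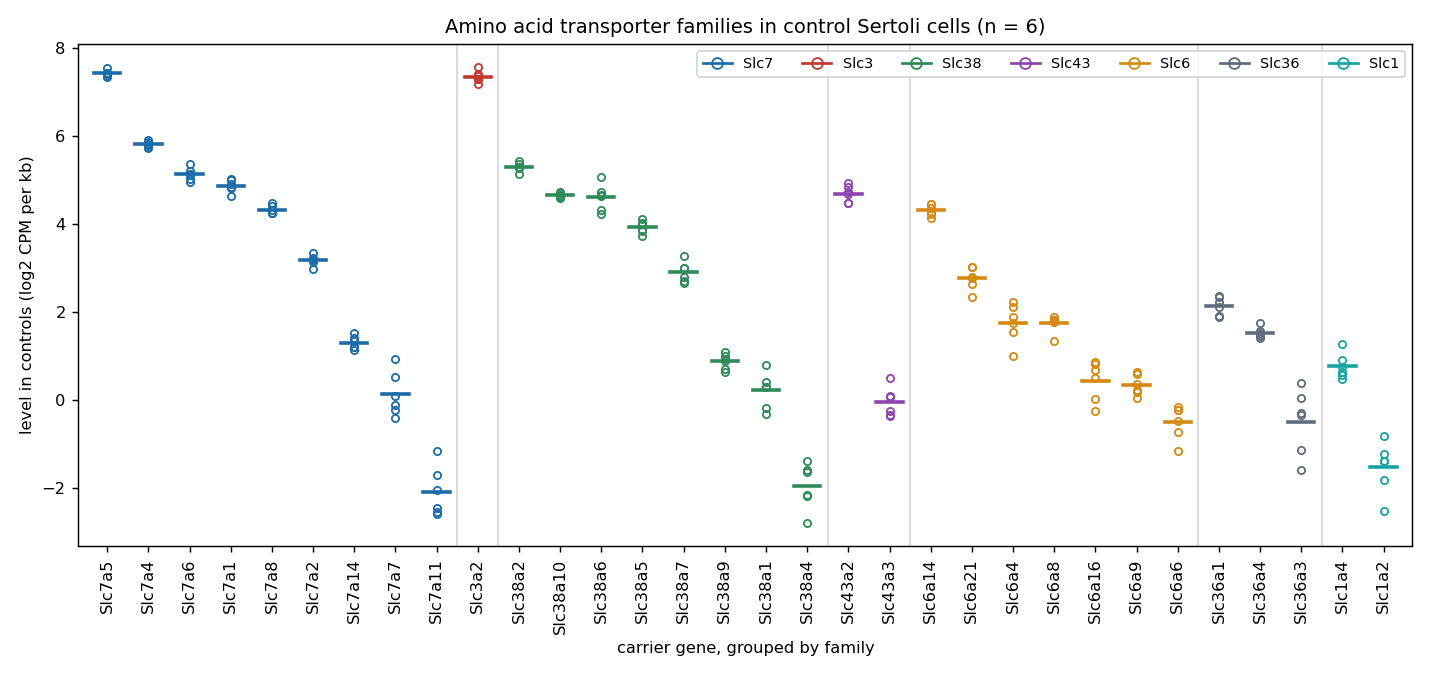
Levels of the 32 tested carriers in control Sertoli cells, grouped by family. The y axis is log2 CPM per kb of transcript, open circles are the 6 control mice and bars are their means, with Slc7a5 at 7.43 and Slc3a2 at 7.35 above all others and Slc7a11 at -2.09 lowest.

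The order of carriers was set in controls, so it was tested in the MSUS samples, which had not been used to set it. The leading carrier was above the next one in 7 of 7 MSUS samples in each of 6 families (exact permutation test over sign flips, two-sided, p = 0.0156, and 0.0156 after adjustment over 6 families). This is the smallest p that 7 samples can give. The pairs were picked by their gap in the same cell type, and the transcript length is the same in every mouse. The p-value thus measures how constant the order was between mice, and not which carrier is more abundant. The mean gap in MSUS samples on the log2 CPM per kb scale was 1.65 for Slc7a5 over Slc7a4, 0.51 for Slc38a2 over Slc38a10, 4.52 for Slc43a2 over Slc43a3, 1.46 for Slc6a14 over Slc6a21, 0.69 for Slc36a1 over Slc36a4 and 2.27 for Slc1a4 over Slc1a2. The size of these gaps depended on the transcript length, which turned the order in Slc1 and left no passed test in Slc38. With the median length of the protein-coding transcripts the Slc1 gap was -0.28 (p = 0.312, exact), and with the union of exons the Slc38 gap was 0.078 (p = 0.297, exact). The median length also brought the MSUS gap to 0.24 in Slc7, 0.75 in Slc6 and 0.34 in Slc38 and raised it to 1.59 in Slc36, with the leading carrier still ahead on average.

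No carrier passed the test between MSUS and control samples. None of the 32 tested members had an unadjusted p under 0.05 (limma voom), where 5.42% of all 14421 tested genes did (2.4% lower and 3.02% higher in MSUS samples). edgeR's quasi-likelihood test and DESeq2 also called 0 members at an unadjusted p under 0.05. After Benjamini-Hochberg adjustment over all genes, 0 members and 0% of all genes passed, and adjusted p of the members lay between 0.878 and 0.995. In each member the range of the MSUS samples overlapped that of the controls, as in all but 0.139% of the tested genes. The log2 fold change was negative in 14 members and positive in 18, with a median of 0.027 beside -0.0018 over all tested genes. The 95% interval of the fold change stayed within ±0.25 on the log2 scale in 10 of the 32 members and within ±0.5 in 21. For the remaining 11 members the data do not exclude a change of that size.

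**Figure D2:**
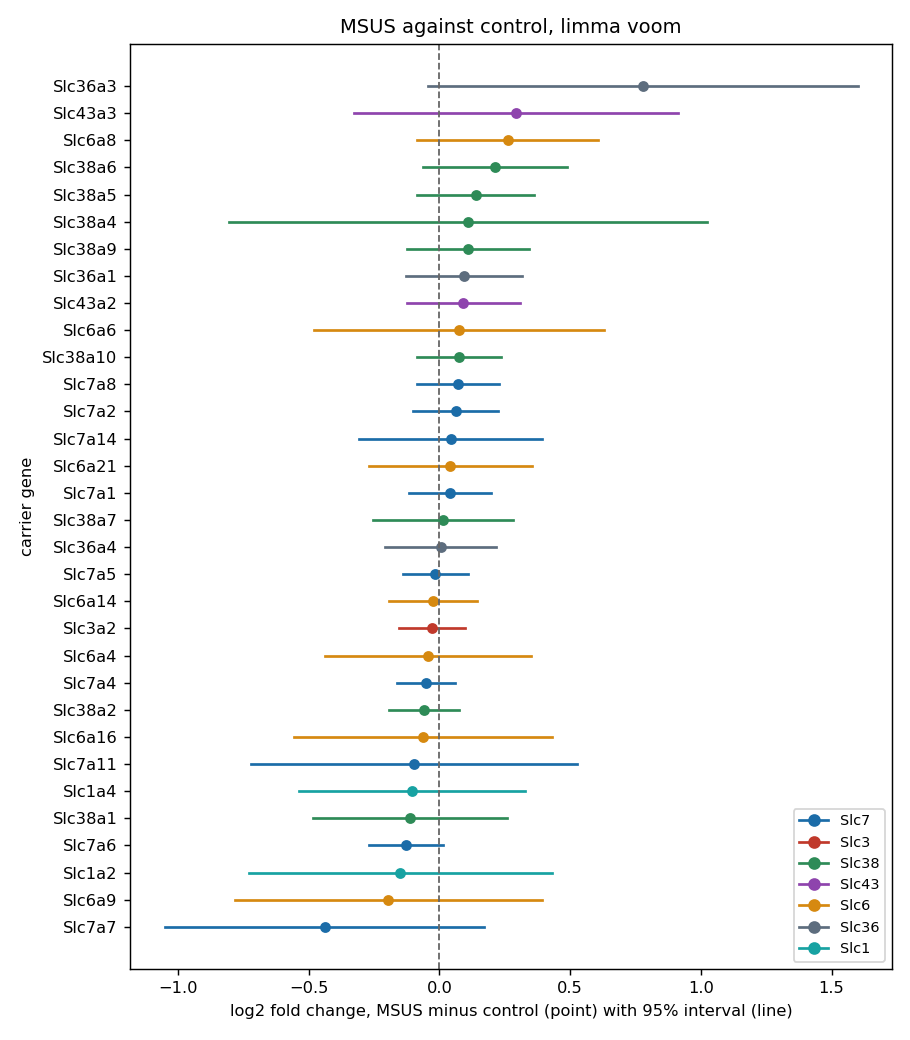
Log2 fold change of the 32 tested carriers, MSUS minus control, from limma voom (points) with its 95% interval (lines), coloured by family. Every interval crosses 0, and the points run from -0.44 for Slc7a7 to 0.78 for Slc36a3.

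Slc3a2 encodes the heavy chain 4F2hc, also known as CD98, and lies at chr19:8706882-8723369, minus strand (GRCm38, as all gene positions here). Its control level was 7.35 ± 0.13 log2 CPM per kb (SD, n = 6). The lowest, median and highest log2 CPM were 8.67, 8.82 and 9.07 in controls and 8.71, 8.79 and 8.89 in MSUS samples. All 7 MSUS samples fell inside the control range, and the fold change was -0.027 on the log2 scale (95% interval -0.15 to 0.099, adjusted p = 0.958, limma). The other heavy chain, Slc3a1, known as rBAT, had between 0 and 11 counts per library and was not tested.

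Slc7a5, or LAT1, exchanges large neutral amino acids such as leucine for glutamine and needs Slc3a2 to reach the membrane. It lies at chr8:121881150-121907694, minus strand, had 5749 to 8874 counts in controls and 5535 to 8559 in MSUS samples and stood at 7.43 ± 0.070 log2 CPM per kb in controls (SD, n = 6). It made up 52.7% ± 0.41 of the CPM per kb of the whole Slc7 family in controls and 53.0% ± 1.32 in MSUS samples (SD, n = 6 and 7). This share rests on the longest transcript: with the median length of the protein-coding transcripts the gap of Slc7a5 over Slc7a4 in controls was 0.21 on the log2 scale, in place of 1.61. The lowest, median and highest log2 CPM were 9.16, 9.24 and 9.36 in controls and 9.10, 9.20 and 9.49 in MSUS samples. The highest MSUS value belonged to mouse 26 and was the only MSUS value above the control range, while those of mice 1 and 11 were below it. The fold change was -0.015 (95% interval -0.14 to 0.11, adjusted p = 0.976, limma).

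The other light chains of Slc3a2 were less abundant. Slc7a6 and Slc7a7, the y+LAT exchangers that release cationic amino acids against neutral ones, stood at 5.14 and 0.14 log2 CPM per kb in controls. Slc7a8, or LAT2, an exchanger of neutral amino acids, stood at 4.33. Slc7a11, or xCT, which takes up cystine in exchange for glutamate, was the lowest tested carrier at -2.09. Slc7a10, or Asc-1, had at most 5 counts in a library.

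Summed over the 6 light chains that pair with Slc3a2, the CPM per kb was 1.40 ± 0.110 times that of the heavy chain in controls and 1.41 ± 0.111 times in MSUS samples (SD, n = 6 and 7). The ratio of single mice was 1.28 to 1.58 among controls, with MSUS mice at 1.32 to 1.63. With the longest transcript length, light chain RNA thus exceeded heavy chain RNA per kb in all 13 mice. Slc7a5 supplied 75.2% ± 0.808 of the light chain sum in controls and 75.8% ± 0.826 in MSUS samples. These ratios and shares concern RNA per kb of the longest transcript and not protein. Other transcript lengths were not tried for them, and the length of a gene is the same in every mouse.

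**Figure D3:**
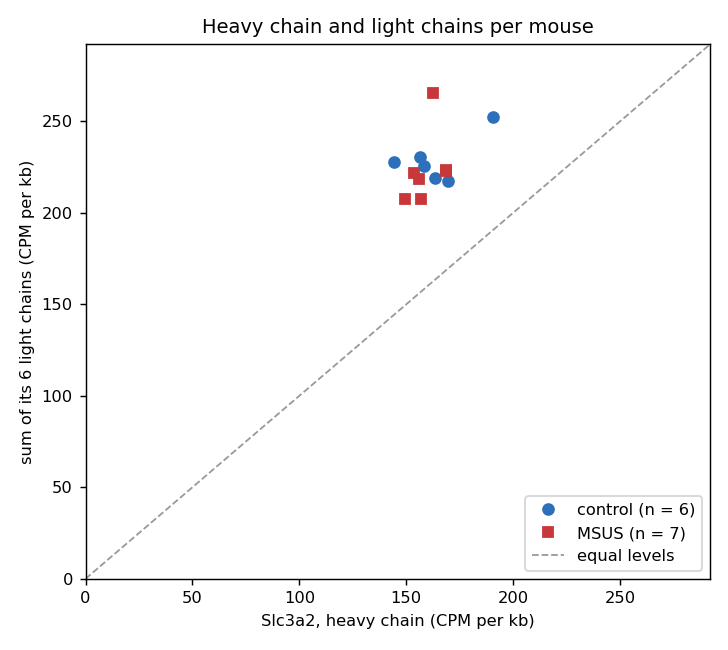
Heavy chain Slc3a2 (x axis) against the sum of its 6 light chains Slc7a5, Slc7a6, Slc7a7, Slc7a8, Slc7a10 and Slc7a11 (y axis), both in CPM per kb of the longest transcript, 1 point per mouse. All 13 points lie above the dashed line of equal levels, and the points of 6 control and 7 MSUS mice overlap.

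Among the light chains Slc7a6 had the largest fold change relative to its error. Its lowest, median and highest log2 CPM were 6.86, 7.03 and 7.28 in controls and 6.80, 6.91 and 7.02 in MSUS samples. All 7 MSUS values were below the control mean, of which those of mice 1 and 5 were also below the control range and the other 5 inside it. The fold change was -0.13 (95% interval -0.27 to 0.013, adjusted p = 0.878, limma). The unadjusted p passed 0.05 in 4 other fits, with fold changes of -0.14 with library size alone, -0.14 with upper quartile scaling, -0.15 without control mouse 10 and -0.16 without control mouse 14, while the adjusted p did not.

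Slc7a8 had a fold change of 0.071 (95% interval -0.085 to 0.23), and 5 of 7 MSUS values exceeded the mean of the controls. Of the MSUS values, 1 lay above the control range and 2 below it. Slc7a7 had the lowest fold change of all tested members, -0.44 (95% interval -1.05 to 0.17, adjusted p = 0.878, limma). Its lowest, median and highest log2 CPM were 0.78, 1.18 and 2.12 in controls and 0.35, 0.82 and 1.38 in MSUS samples, from 19 to 48 counts in controls and 12 to 29 in MSUS samples. The groups overlapped, and exons of Slc7a7 also overlap those of Oxa1l on the other strand. The fold change of Slc7a11 was -0.098 (95% interval -0.72 to 0.52).

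On the per kb scale, carriers of the Slc7 family that work without a heavy chain were led by Slc7a4. This gene resembles the cationic amino acid transporters, although its substrate is not settled, and it stood at 5.81 ± 0.067 log2 CPM per kb (SD, n = 6). Slc7a1, or CAT1, which takes up arginine and lysine, stood at 4.87 ± 0.14, and Slc7a2, or CAT2, at 3.18 ± 0.12. Slc7a14, a lysosomal relative, stood at 1.30. Slc7a4 exceeded Slc7a6 in 6 of 6 controls. Slc7a6 and Slc7a1 were less clearly ordered, with a gap of 0.26 ± 0.15 (SD) and the higher value for Slc7a6 in 5 of 6 controls. This order rests on the longest transcript. Without a length, mean log2 CPM in controls was 7.71 for Slc7a1, 7.53 for Slc7a4 and 7.04 for Slc7a6. Exons of Slc7a4 overlap those of P2rx6 on the other strand, and the sources used here do not state whether the counting used strand. Other tested carriers with exons overlapped on the other strand include Slc1a2, Slc6a6, Slc6a9, Slc7a2, Slc38a9, Slc38a10 and Slc43a2.

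The lowest, median and highest log2 CPM of Slc7a4 were 7.45, 7.51 and 7.62 in controls and 7.33, 7.46 and 7.56 in MSUS samples. Its fold change was -0.052 (95% interval -0.16 to 0.059), the narrowest interval among the members. For Slc7a1 the values were 7.47, 7.72 and 7.87 in controls and 7.57, 7.70 and 8.0 in MSUS samples. The groups overlapped in both genes, with 2 MSUS samples of Slc7a4 below the control range and 2 of Slc7a1 above it. The fold change of Slc7a1 was 0.040 (95% interval -0.12 to 0.20). Slc7a2 and Slc7a14 had fold changes of 0.062 (95% interval -0.10 to 0.22) and 0.043 (95% interval -0.31 to 0.39).

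In the Slc38 family, sodium-coupled carriers of neutral amino acids and their relatives, abundance was spread over several members. Slc38a2, or SNAT2, which imports alanine, serine and glutamine, was first with 5.30 ± 0.094 log2 CPM per kb and 34.2% ± 1.19 of the family's CPM per kb in controls (SD, n = 6). Slc38a10 and Slc38a6, both of less settled function, followed at 4.65 and 4.60 and did not differ from each other beyond their spread, with a gap of 0.048 ± 0.30 (SD). Slc38a5, or SNAT5, which moves glutamine, stood at 3.93, and Slc38a7, a lysosomal glutamine exporter, at 2.90. Slc38a9, the lysosomal arginine sensor of the mTORC1 pathway, stood at 0.88 and was above Slc38a1 (SNAT1), at 0.22, in 5 of 6 controls. Slc38a4 was lowest among the 8 tested members at -1.96.

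Slc38a1, Slc38a2 and Slc38a4 all lie on the minus strand of chromosome 15 between 96571418 and 97055956. Their control levels on the log2 CPM per kb scale spanned from -1.96 for Slc38a4 to 5.30 for Slc38a2, so neighbours in the genome were far apart in level.

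The lowest, median and highest log2 CPM of Slc38a2 were 7.36, 7.52 and 7.64 in controls and 7.33, 7.41 and 7.67 in MSUS samples. The groups overlapped, although 5 of 7 MSUS values were under the mean of the controls, and the fold change was -0.059 (95% interval -0.19 to 0.075, adjusted p = 0.924, limma). Single controls had 32.2% to 35.2% of the family's CPM per kb on Slc38a2, and single MSUS mice 28.5% to 35.1%.

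Slc38a6 varied more between mice than the carriers above it, with lowest, median and highest log2 CPM of 6.21, 6.62 and 7.03 in controls and 6.50, 6.75 and 7.15 in MSUS samples. MSUS mice 5 and 26 were above the control range and the other 5 were inside it. The fold change was 0.21 (95% interval -0.063 to 0.49, adjusted p = 0.878, limma), and without control mouse 10, the highest control, it was 0.31 with an unadjusted p under 0.05 (limma). Slc38a10 had a fold change of 0.075 (95% interval -0.084 to 0.23). Of the less abundant members, Slc38a5 had 0.14 (95% interval -0.085 to 0.36), Slc38a9 0.11 (95% interval -0.12 to 0.34) and Slc38a1 -0.11 (95% interval -0.48 to 0.26). The interval was widest for Slc38a4, from -0.80 to 1.02, at 3 to 26 counts per library.

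Slc43a2, or LAT4, which lets large neutral amino acids pass by facilitated diffusion, made up 96.2% ± 0.671 of the CPM per kb of its family in controls (SD, n = 6). It stood at 4.68 ± 0.18 log2 CPM per kb, far above Slc43a3, a carrier of purine nucleobases, at -0.048. Slc43a1, or LAT3, had at most 10 counts in a library. The lowest, median and highest log2 CPM of Slc43a2 were 7.31, 7.54 and 7.76 in controls and 7.37, 7.57 and 8.05 in MSUS samples, with 1 MSUS sample above the control range. Its fold change was 0.092 (95% interval -0.12 to 0.31). Slc43a3 had a fold change of 0.29 (95% interval -0.33 to 0.91, adjusted p = 0.913, limma), and without MSUS mouse 6 it was 0.51 with an unadjusted p under 0.05 (limma).

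**Figure D4:**
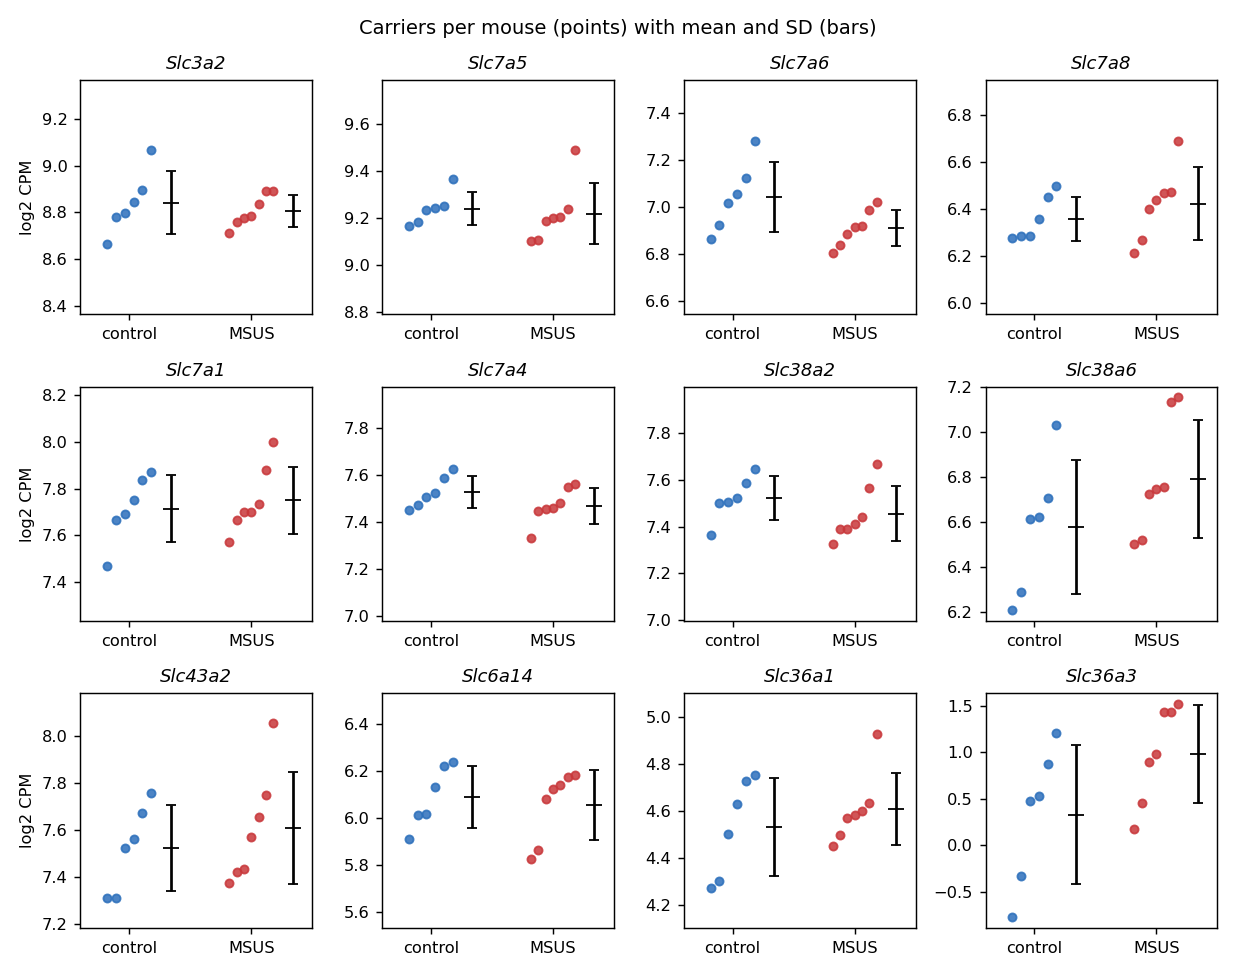
Log2 CPM of 12 carriers per mouse, with 6 control mice in blue and 7 MSUS mice in red, sorted by value within each group, and bars for mean and SD. The y axes differ between panels and do not start at 0; the groups overlap in every panel, and the highest point is a control for Slc3a2, Slc7a6, Slc7a4 and Slc6a14 and an MSUS sample in the other panels.

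The Slc6 family holds sodium- and chloride-coupled carriers of neurotransmitters, amino acids and related molecules, and 7 of its 21 members were tested. Slc6a14, a carrier of both neutral and cationic amino acids, led with 4.31 ± 0.13 log2 CPM per kb and 53.4% ± 3.66 of the family's CPM per kb in controls (SD, n = 6). Slc6a21, which has no settled substrate, followed at 2.76. Its neighbour on chromosome 7, Slc6a16 (45241085 to 45273367, with Slc6a21 at 45277513 to 45288998), stood at 0.44. The serotonin transporter Slc6a4 and the creatine transporter Slc6a8 did not differ beyond their spread, at 1.76 and 1.74, with Slc6a4 higher in 3 of 6 controls. Slc6a16 and the glycine transporter Slc6a9, at 0.34, were not separated either, and the taurine transporter Slc6a6 was lowest of the 7 at -0.50.

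Slc6a14 had lowest, median and highest log2 CPM of 5.91, 6.08 and 6.24 in controls and 5.82, 6.13 and 6.19 in MSUS samples. None of the MSUS samples was above the control range and 2 were below it, and the fold change was -0.024 (95% interval -0.19 to 0.14, adjusted p = 0.974, limma). For Slc6a8 the values were 3.33, 3.79 and 3.87 in controls and 3.52, 3.82 and 4.56 in MSUS samples. MSUS mice 1, 6 and 23 were above the control range, and 6 of 7 MSUS samples were above the control mean. Control mouse 22 was the lowest of all 13. The fold change of Slc6a8 was 0.26 (95% interval -0.085 to 0.61, adjusted p = 0.878, limma), and without MSUS mouse 26 it was 0.35 with an unadjusted p under 0.05 (limma). Slc6a21, Slc6a4, Slc6a6, Slc6a9 and Slc6a16 had fold changes between -0.20 and 0.075, all with intervals that held 0.

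Among proton-coupled carriers of the Slc36 family, Slc36a1 (PAT1), which exports small amino acids from lysosomes, stood at 2.14 ± 0.21 log2 CPM per kb and Slc36a4 (PAT4) at 1.53 ± 0.12 in controls (SD, n = 6). Slc36a1 made up 55.1% ± 5.27 and Slc36a4 35.9% ± 2.45 of the family's CPM per kb. The fold change of Slc36a1 was 0.094 (95% interval -0.13 to 0.32). That of Slc36a4 was 0.0041 (95% interval -0.21 to 0.22). Its sign turned under 5 other settings of the fit, so no direction can be given. It also turned when single mice were left out, as it did for other named carriers.

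Slc36a3, a less studied member of this family on chromosome 11 near Slc36a1, had the highest fold change of all tested members, 0.78 (95% interval -0.045 to 1.60, adjusted p = 0.878, limma). It had 6 to 29 counts in controls and 11 to 30 in MSUS samples. The lowest, median and highest log2 CPM were -0.77, 0.50 and 1.21 in controls and 0.17, 0.99 and 1.52 in MSUS samples. MSUS mice 5, 6 and 13 were above the control range, 6 of 7 MSUS samples were above the control mean, and the remaining 4 lay inside the control range. The unadjusted p passed 0.05 with sample quality weights (fold change 0.92) and when MSUS mouse 1 (0.93), control mouse 9 (0.91), MSUS mouse 11 (0.87) or control mouse 22 (1.00) was left out (limma), while the adjusted p did not.

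The Slc1 family of glutamate and neutral amino acid carriers was low throughout. Slc1a4, or ASCT1, which exchanges alanine, serine and cysteine, stood at 0.77 ± 0.29 log2 CPM per kb in controls and Slc1a2, the glutamate transporter GLT-1, at -1.53 ± 0.58 (SD, n = 6). Slc1a4 made up 63.7% ± 8.20 of the family's CPM per kb in controls, with single controls between 54.4% and 76.4%. This share rests on the longest transcript. With the median length of the protein-coding transcripts, the control gap of Slc1a4 over Slc1a2 was -0.26 on the log2 scale, in place of 2.30. Their fold changes were -0.10 (95% interval -0.54 to 0.33) and -0.15 (95% interval -0.73 to 0.43). Slc1a3, the glutamate transporter GLAST, had 4 to 24 counts per library and Slc1a5, the glutamine exchanger ASCT2, had 0 to 11, so neither was tested.

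The 31 members that were not tested had few counts. In 22 of them no library exceeded 10 counts, and in 28 the median control count was under 5. Their highest counts were 24, for Slc1a3 and for Slc6a17, a vesicular carrier of neutral amino acids. Slc7a12 was the only member at 0 in all 13 libraries, which allows a level of up to 0.209 to 0.307 CPM depending on the library (3 counts, counting error only). The epithelial carriers Slc6a18, Slc6a19 and Slc7a9, known for absorption in kidney and intestine, were in this group, with at most 2, 2 and 8 counts. At this depth their presence at a lower level was not detectable.

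Genes that work beside these carriers were counted in 7 lists. At an unadjusted p under 0.05 (limma) 7 of their 115 tested genes passed, 3 lower and 4 higher in MSUS samples, which is 6.09% beside 5.42% of all genes. The adjusted p was 0.878 for each of the 7. The groups overlapped in all 7 as well. This count moved with single mice: it was 4 without MSUS mouse 6 or without control mouse 9, 14 or 24, 3 without control mouse 12 and 11 without MSUS mouse 13.

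Among 34 tested genes of amino acid sensing by mTORC1, 1 was lower and 2 were higher at p under 0.05, with a list median of 0.013. Tfeb, a transcription factor of lysosome genes that mTORC1 keeps out of the nucleus, had lowest, median and highest log2 CPM of 5.05, 5.39 and 5.52 in controls and 4.73, 5.01 and 5.14 in MSUS samples. All 7 MSUS samples were below the control mean and 4 of them below the control range, with a fold change of -0.33 (95% interval -0.53 to -0.13, adjusted p = 0.878, limma). Rptor, a subunit of mTORC1, had a fold change of 0.23 (adjusted p = 0.878, limma). Wdr59, part of the GATOR2 complex, had 0.19 (adjusted p = 0.878, limma).

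Of the 12 tested genes of the amino acid stress response, 1 was lower and 0 were higher, with a list median of 0.047. The gene was Asns, asparagine synthetase, with a fold change of -0.16 (adjusted p = 0.878, limma). Atf4 itself, the transcription factor that binds the motif shown above, had 0.058 (95% interval -0.064 to 0.18). Among 16 transporters of other families 1 was lower and 0 were higher, and the median was -0.070. This was Ctns, the lysosomal cystine exporter, at -0.38 (adjusted p = 0.878, limma), and all 7 MSUS values were under the mean of the controls.

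Among 14 enzymes of glutamine, glutamate and aspartate metabolism 0 were lower and 1 was higher, with a median of -0.0030. Gad1, which makes GABA from glutamate, had lowest, median and highest log2 CPM of 1.14, 1.64 and 1.85 in controls and 1.62, 2.14 and 2.71 in MSUS samples, all 7 above the control mean. Its fold change was 0.58 (adjusted p = 0.878, limma). Among 14 enzymes of serine, glycine and cysteine metabolism 0 were lower and 1 was higher, with a median of 0.023. Here Gclm, a subunit of the enzyme that starts glutathione synthesis, had 0.23 (adjusted p = 0.878, limma). None of the 14 enzymes of branched-chain amino acids (median 0.0039) and none of the 11 of arginine and polyamines (median -0.035) had an unadjusted p under 0.05 (limma).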

How the data were processed

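RNA of sorted Sertoli cells from 6 control and 7 MSUS males was sequenced with 100 bp single-end reads after 12 PCR cycles. The authors trimmed reads with Trim Galore 0.6.5, assigned them to GENCODE vM23 transcripts with Salmon 1.1.0 and deposited estimated counts per gene, not normalized (versions from the submitters' processing notes). How transcripts were summed to genes is not given in the sources used here. Of 54281 features 27170 had no gene name. These held 20.7% to 24.1% of the counts of a control and 21.6% to 26.7% of those of an MSUS library, and entered neither library sizes nor tests. Columns without a matching sample numbered 0, and no library was a copy of another (78 pairs compared).

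Counts were rounded, filtered with filterByExpr and normalized with TMM (edgeR 4.0.16, R 4.3.3). Groups were compared with limma 3.58.1 and voom, as in the methods of the study, with Benjamini-Hochberg adjustment over all 14421 genes. DESeq2 1.42.0 and the quasi-likelihood test of edgeR served as alternatives. The code was tested on simulated data. For levels, log2 CPM was taken after adding a prior count of 2. Transcript lengths, positions and overlaps come from GENCODE vM21, an earlier release on the same build (GRCm38), and promoters come from RefSeq. Only 45 of 63 members have a promoter there, so the share with a motif covers those members only. Intervals are limma's 95% intervals, and depth limits chiefly the members under about 30 counts.

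Named carriers were the 3 most abundant tested members per family, members with p under 0.05, the 3 smallest p in each direction and 17 fixed by role. The other tested carriers, the genes of the 7 lists and the untested members were named outside this rule, after values had been seen. Members, lists and tests were chosen with earlier results of these data known. The light chain ratio, the interval limits and the order of neighbours were chosen after values had been seen. Replicate numbers come from the sample titles, are used here to name the mice and pair no samples across groups.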

Additional observations from a re-analysis of the deposited data

Results flagged for a closer look

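In 50 groups of values (25 named carriers in 2 conditions) 3 single mice stood apart from the rest of their group by Dixon's test, beside 2.5 that chance would flag at 1 in 20. MSUS mouse 26 was highest for Slc36a1, with 4.93 log2 CPM where the next MSUS value was 4.64, and for Slc7a5, with 9.49 where the next was 9.24. Control mouse 22 was lowest for Slc6a8, with 3.33 log2 CPM where the next control value was 3.76.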

How the results depend on the processing

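No member passed the adjusted threshold under any alternative run. The number of members with an unadjusted p under 0.05 was 0 of 32 as reported and with edgeR, DESeq2, DESeq2 size factors, a 1 CPM filter, unnamed features kept or a germ cell marker covariate. It was 1 with sample quality weights (Slc36a3), 1 with library size alone and 1 with upper quartile scaling (both Slc7a6), and 0 to 2 when single mice were left out. With no count filter it was 2 of 62, Slc6a3 (-1.26) and Slc6a11 (1.23), each with at most 4 counts in a library. The count over the 7 lists ranged from 3 to 11 when single mice were left out, beside 7 as reported. The gap of Slc1a4 over Slc1a2 was -0.28 in MSUS samples and -0.26 in controls with the median transcript length, and that of Slc38a2 over Slc38a10 was 0.078 in MSUS samples with the union of exons, since these settings change the length alone. The fold change of Slc36a4 was -0.0062 with quality weights, -0.014 with library size alone, -0.0071 with upper quartile scaling, -0.0011 without a count filter and -0.0027 with unnamed features kept. The sign with single mice left out was followed only for carriers named by the rule above, and not for the other tested carriers. It turned for 11 of them. Their fold changes ranged from -0.22 to 0.020 for Slc1a4, from -0.029 to 0.053 for Slc36a4, from -0.21 to 0.0020 for Slc38a1, from -0.065 to 0.016 for Slc3a2, from -0.065 to 0.019 for Slc6a14, from -0.057 to 0.12 for Slc6a21, from -0.21 to 0.054 for Slc6a4, from -0.050 to 0.23 for Slc6a6, from -0.0056 to 0.070 for Slc7a1, from -0.19 to 0.066 for Slc7a11 and from -0.056 to 0.0083 for Slc7a5. Low counts limit Slc36a3, Slc38a4, Slc43a3, Slc7a7 and Slc7a11, whose intervals are the widest. No paired analysis was possible because the groups share no replicate numbers.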

Other observations

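MSUS mouse 26 had the highest level of all 13 mice in 9 of the 32 tested carriers, more than any other mouse, and control mouse 9 came next with 6. The median deviation of mouse 26 from the gene means over the 32 carriers was 0.13 on the log2 CPM scale, while the other 12 mice lay between -0.093 and 0.093. This mouse also had the lowest mean of the elongated spermatid markers among all libraries, 6.95 log2 CPM. How often this mouse was highest over all tested genes was not computed, so these values cannot be read as particular to the carriers. They were noticed after the data had been seen, and their relation to each other was not tested.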
